A study of Rattus norvegicus with 8 samples.

Results

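The aryl hydrocarbon receptor gene Ahr was examined in rat lung together with its repressor gene Ahrr and 8 enzyme genes that act on constituents of cigarette smoke: Cyp1a1, Cyp1b1, Cyp2s1, Cyp2e1, Cyp4b1, Aldh3a1, Nqo1 and Ugt1a6. These 10 genes were taken as a named list, and every non-control probe whose transcript record belongs to 1 of them was used. All 10 had a probe, 15 of the 45598 probes in all, and they are 10 of the 16667 gene symbols on the array. All 15 probes passed the filter on dim probes, so that each gene is 1 of the 25212 features tested. The RNA came from whole lung of male rats on 8 1-colour arrays, 2 in each of 4 groups. EV lungs had been exposed to cigarette smoke in a chamber for 12 weeks and then received, into the trachea in week 13, extracellular vesicles isolated from 2500000 human umbilical cord mesenchymal stem cells. MSC lungs had the same smoke exposure and then received about 2500000 of those cells by the same route. CS lungs had the 12 weeks of smoke alone, and NAIVE lungs had normal air. The labels do not give the strain, the age, a vehicle for the CS rats or the day on which lungs were taken, and they do not say whether the 2 samples of a group are separate animals. Each p-value therefore reflects the scatter of these samples alone, and that scatter may be technical.

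The aryl hydrocarbon receptor (AhR) is a transcription factor that waits in the cytosol, held by a chaperone complex, until a planar aromatic ligand such as a polycyclic hydrocarbon of smoke binds it. It then enters the nucleus, pairs with the protein Arnt and binds short DNA elements beside its target genes. The best known targets are the cytochromes P450 of family CYP1, which oxidise the ligands, and the enzymes Nqo1, Aldh3a1 and Ugt1a6, which handle the quinones, aldehydes and phenols that arise. Ahrr, itself a target, competes with the receptor for Arnt and dampens the response. Cyp2s1, Cyp2e1 and Cyp4b1 are further P450 enzymes of foreign compounds, of which Cyp4b1 is abundant in lung and Cyp2e1 in liver.

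The element bound by AhR and Arnt has the core GCGTG, and the start regions of members show how far the genes differ in carrying it. RefSeq start regions of build GRCr8, from 250 bases before to 50 bases after the transcript start, were at hand for 8 of the 10 genes (not for Cyp1a1 and Aldh3a1). The core was searched on both strands, where it also reads CACGC, and a longer form, TNGCGTG, was searched in the same way; every longer match contains a core match. Of all 33469 rat start regions in the table, 29.7% held at least 1 core match, 10.2% at least 2 and 3.59% at least 3, and 4.89% held the longer form. Ahrr held 3, Cyp1b1 held 2, and Nqo1 and Ugt1a6 held 1 each, whereas these letters were not in the windows of Ahr, Cyp2e1, Cyp2s1 and Cyp4b1. The 4 sequences below are shown because Ahrr has the most matches and because Cyp1b1, Ugt1a6 and Cyp2s1 had the most alike levels among the members (see their values further on), with 2, 1 and 0 matches. Each is printed 5′ to 3′ on the strand of its gene, with core matches in capitals. Ahrr lies at chr1:30821969-30822268 on the plus strand, Cyp1b1 at chr6:21094315-21094614 on the plus strand, Ugt1a6 at chr9:96194768-96195067 on the plus strand and Cyp2s1 at chr1:90453024-90453323 on the minus strand.
Ahrr: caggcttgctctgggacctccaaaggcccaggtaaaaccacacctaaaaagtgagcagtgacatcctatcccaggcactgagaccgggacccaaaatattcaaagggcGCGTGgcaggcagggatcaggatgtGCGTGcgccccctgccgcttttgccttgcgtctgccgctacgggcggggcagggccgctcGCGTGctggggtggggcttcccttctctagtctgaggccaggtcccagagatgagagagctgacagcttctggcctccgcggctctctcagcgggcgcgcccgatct
Cyp1b1: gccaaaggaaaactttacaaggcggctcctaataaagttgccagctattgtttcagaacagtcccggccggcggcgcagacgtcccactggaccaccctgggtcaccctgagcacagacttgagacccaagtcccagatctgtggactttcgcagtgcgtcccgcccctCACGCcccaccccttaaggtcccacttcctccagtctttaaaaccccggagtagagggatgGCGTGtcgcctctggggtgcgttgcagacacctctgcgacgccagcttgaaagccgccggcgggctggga
Ugt1a6: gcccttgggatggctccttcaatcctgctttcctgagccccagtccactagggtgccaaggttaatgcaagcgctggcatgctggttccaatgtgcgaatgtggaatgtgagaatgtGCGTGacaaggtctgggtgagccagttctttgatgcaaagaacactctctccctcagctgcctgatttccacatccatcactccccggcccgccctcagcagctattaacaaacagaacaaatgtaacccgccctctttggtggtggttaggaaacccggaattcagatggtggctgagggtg
Cyp2s1: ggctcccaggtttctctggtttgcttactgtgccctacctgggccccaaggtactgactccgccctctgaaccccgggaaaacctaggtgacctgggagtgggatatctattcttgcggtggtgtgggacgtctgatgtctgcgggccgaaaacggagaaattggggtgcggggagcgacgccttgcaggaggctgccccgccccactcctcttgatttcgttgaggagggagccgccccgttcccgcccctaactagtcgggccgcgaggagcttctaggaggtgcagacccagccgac
The matches of Ahrr began at positions -142, -117 and -57 from the transcript start, and the nearest has the longer form. The sense match of Cyp1b1, at -20, also has the longer form, and its other match is on the opposite strand. A match is a run of letters in these windows and not a measured binding site.

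A level is the log2 of the processed signal minus the log2 of the array's 75th percentile of signal, so levels and differences are read against the rest of the same array. That percentile was 762 and 483 on the EV arrays, 246 and 256 on the MSC arrays, 3235 and 2677 on the CS arrays and 568 and 362 on the NAIVE arrays, while the control probes of the kit's E1A spike-in RNA stood on the CS arrays at 0.832 times their NAIVE signal. The median difference of all 25212 features was -0.62 in CS against NAIVE, 0.55 in EV against CS and 0.74 in MSC against CS, and it was 2.34, -1.93 and -3.28 when arrays were scaled to the spike-in controls instead. For EV against MSC, EV against NAIVE and MSC against NAIVE it was -0.28, -0.06 and 0.23, and 1.26, 0.42 and -0.83 on the spike-in scale. Between 48.0% and 71.2% of probes were well above background. The arrays lie on 1 slide with each group in its own column, and slide column and group cannot be told apart. The lung marker Sftpc of alveolar type 2 cells had levels from 7.41 to 9.88 and the club cell marker Scgb1a1 from 5.42 to 7.58, and both were well above background on all 8 arrays. The second NAIVE array stood apart in markers of liver cells: albumin (Alb) had a level of 3.51 there against -9.62 to -5.05 on the other 7 arrays, and the 4 tested of 6 liver markers summed to 17.9 times the 75th percentile there and to 0.0784 to 0.381 times elsewhere. Values against NAIVE are therefore given with and without that array where it moves them.

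In CS lung, 3 of the 10 genes passed the test against NAIVE lung: Ahrr was higher, and Cyp2s1 and Ugt1a6 were lower. Of all features 47.5% passed in this comparison, 12.1% higher and 35.4% lower, so the share of the members that passed was below that of all features. Levels of the 2 groups did not overlap for 7 of the 10 genes, 3 higher and 4 lower, against 79.4% of all features. The median difference of the 10 genes was 0.07. In bulk lung, fewer cells of a type and less RNA per cell cannot be told apart. On the spike-in scale all 10 genes passed as higher in CS lung, as did 82.6% of all features, so Cyp2s1 and Ugt1a6 turned sign there. Under normexp, quantile normalization and cyclic loess both stayed lower, and Cyp2s1 passed under all 3 and Ugt1a6 under normexp alone. Without the second NAIVE array, CS replicate 1 or CS replicate 2, fewer of the 10 genes passed, and fewer of all features passed as well.

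In EV lung 3 of the 10 genes passed against CS lung, with Cyp2s1 and Ugt1a6 higher and Cyp2e1 lower, where 39.8% of all features passed, 29.8% higher and 9.94% lower. In MSC lung 4 of the 10 passed against CS lung, with Cyp2s1, Cyp1b1 and Ugt1a6 higher and Cyp2e1 lower, where 59.7% of all features passed, 43.3% higher and 16.4% lower. Groups did not overlap for 8 genes in EV against CS and 9 in MSC against CS, beside 82.8% and 80.5% of all features. On the spike-in scale the higher genes turned lower: 9 of the 10 passed as lower in EV lung (73.2% of all features) and 10 as lower in MSC lung (87.9%). Both treatments were set against the same 2 CS arrays, which also serve in CS against NAIVE, so opposite signs between these comparisons are not independent of each other. In EV against CS fewer of the 10 genes passed without CS replicate 1, CS replicate 2 or EV replicate 2, and more without either MSC array. The number of all features that passed moved the same way. In MSC against CS fewer of the 10 passed without CS replicate 1, CS replicate 2 or MSC replicate 2, where fewer of all features passed as well. More of the 10 passed there without MSC replicate 1, although fewer of all features did.

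None of the 10 genes passed in EV against MSC (7.12% of all features did), in EV against NAIVE (0%) or in MSC against NAIVE (0.00397%) by limma on the percentile scale. At an unadjusted p under 0.05 were Ahrr, Cyp1a1 and Cyp4b1 in EV against MSC, all higher in EV lung. Ahrr and Cyp1a1 were so in EV against NAIVE (higher in EV lung), and Cyp2e1 and Cyp4b1 in MSC against NAIVE (lower in MSC lung). The share of all features under this unadjusted cut was not computed, so these genes cannot be set beside the shares above. The spike-in scale gave 6 genes higher in EV than in MSC lung (40.7% of all features), 0 in EV against NAIVE and 2 lower in MSC than in NAIVE lung (6.3%), where EV against NAIVE had 0.00793% of all features. With 2 arrays against 2, an exact permutation test of a single gene cannot go below p = 0.333, so every p here rests on the spread that limma shares across features. Precision is limited throughout by having 2 arrays in each group.

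**Figure D1:**
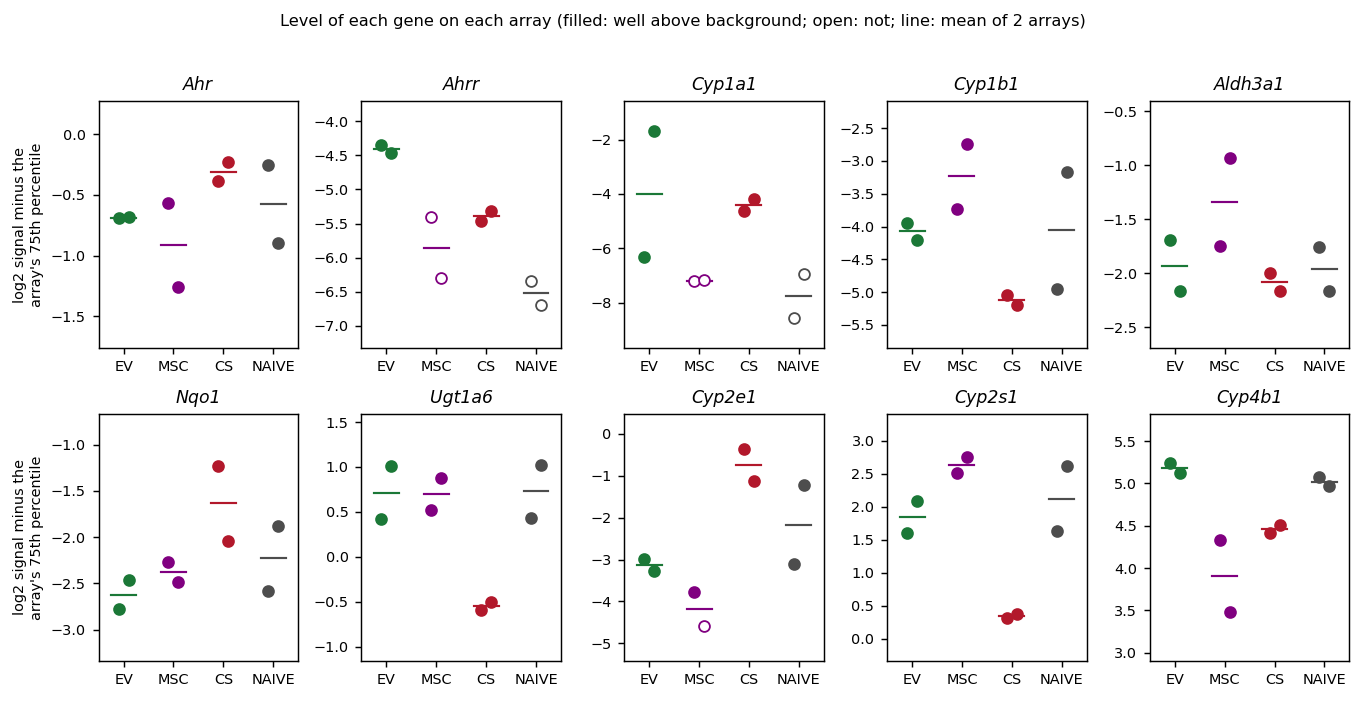
Level of each of the 10 genes (log2 signal minus the array's 75th percentile) on the 2 arrays of EV, MSC, CS and NAIVE lung, with filled points well above background, open points not, and a line at the mean of 2 arrays. Cyp2s1 and Ugt1a6 sit lowest on the CS arrays on this scale. Ahrr and Cyp1a1 have open points on the MSC and NAIVE arrays, and Cyp2e1 has an open point on MSC replicate 2. The 2 EV points of Cyp1a1 lie at -6.31 and -1.69.

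Ahr encodes the receptor itself. Its brighter probe had levels of -0.69 and -0.69 in EV lung, -0.57 and -1.26 in MSC lung, -0.39 and -0.23 in CS lung and -0.26 and -0.90 in NAIVE lung. The CS arrays overlapped NAIVE and lay above both treated groups. The difference in CS against NAIVE was 0.27 (SE 0.35, adjusted p = 0.546), and it turned to -0.05 without the second NAIVE array. It was -0.38 in EV against CS (SE 0.35, adjusted p = 0.406) and -0.61 in MSC against CS (SE 0.35, adjusted p = 0.170). The other Ahr probe, -3.60 and -3.48 in EV, -2.96 and -3.14 in MSC, -4.05 and -3.75 in CS and -3.10 and -3.73 in NAIVE lung, ran the opposite way. In a fit of all 29780 probes, in which 46.5% passed in CS against NAIVE, 38.9% in EV against CS and 58.8% in MSC against CS, it passed as higher in MSC than in CS lung at 0.85 (SE 0.31, adjusted p = 0.0475), where the brighter probe stood at -0.61, and in none of these 3 comparisons did both probes share a sign on the percentile scale. On the spike-in scale both probes were higher in CS than in NAIVE lung, at 3.23 and 2.47.

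Ahrr, the repressor, had levels of -4.34 and -4.47 in EV lung, -5.40 and -6.30 in MSC lung, -5.46 and -5.31 in CS lung and -6.34 and -6.69 in NAIVE lung. It was well above background on all EV and CS arrays and on none of the MSC and NAIVE arrays. EV was highest, CS lay between EV and NAIVE with no overlap of either, and MSC overlapped CS. Because NAIVE gives only a bound, Ahrr was at least 1.09-fold higher in CS than in NAIVE lung (fitted log2 difference 1.13, SE 0.36, adjusted p = 0.0338). That bound rests on NAIVE replicate 1, since both CS levels lie below -4.70, the lowest level well above background on NAIVE replicate 2. None remains without NAIVE replicate 1, and it was at least 1.92-fold without NAIVE replicate 2. The fitted difference turned to -1.45 under normexp background correction (adjusted p = 0.000172), the only scaling that turned it, and did not pass without the second NAIVE array (0.96, adjusted p = 0.136). In EV against NAIVE it was at least 2.16-fold higher (fitted 2.12, SE 0.36, unadjusted p = 0.000430, adjusted p = 0.952). The bound was 1.23-fold without NAIVE replicate 1 and 3.80-fold without NAIVE replicate 2. In EV against MSC it was at least 1.46-fold higher (fitted 1.45, SE 0.36, adjusted p = 0.0522, turned to -0.64 under normexp). The difference in EV against CS was 0.98 (SE 0.36, adjusted p = 0.0610), and it turned to -1.50 on the spike-in scale. The MSC arrays allow no fold against CS, since the CS levels lie below -4.97 and -4.92, the lowest levels that were well above background on the MSC arrays.

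Cyp1a1 encodes the P450 enzyme most widely used as a readout of AhR activity. Its level was -6.31 and -1.69 in EV lung, -7.21 and -7.16 in MSC lung, -4.63 and -4.18 in CS lung and -8.57 and -6.94 in NAIVE lung. The processed signal behind these was 9.62 and 150 in EV lung, 1.66 and 1.79 in MSC lung, 130 and 147 in CS lung and 1.50 and 2.94 in NAIVE lung. Both CS arrays were thus above every MSC and NAIVE array, while the EV arrays lay on either side of CS. The probe was well above background on the EV and CS arrays and on no MSC or NAIVE array, and Cyp1a1 was at least 2.15-fold higher in CS than in NAIVE lung without passing (fitted 3.35, SE 1.29, adjusted p = 0.0647). It passed without EV replicate 1 or EV replicate 2, at an adjusted p of 0.00643 each, since the spread of the EV arrays then leaves the fit, and normexp turned the sign, to -0.67. Without the second NAIVE array the fitted difference was 4.16 (adjusted p = 0.0931) and the bound at least 3.79-fold, and without the first the bound was at least 1.23-fold.

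Against MSC lung, Cyp1a1 was at least 1.93-fold higher in EV lung (fitted 3.19, SE 1.29, adjusted p = 0.143). This bound rests on EV replicate 2. It was at least 9.60-fold without EV replicate 1, and none remains without EV replicate 2. CS lung was at least 1.45-fold above MSC lung (fitted MSC against CS -2.78, SE 1.29, adjusted p = 0.0978, turned to 1.31 under normexp). EV was at least 2.87-fold above NAIVE lung (fitted 3.76, SE 1.29, adjusted p = 0.952). Again no bound remains without EV replicate 2. It was at least 14.2-fold without EV replicate 1, 1.63-fold without NAIVE replicate 1 and 5.04-fold without NAIVE replicate 2. In EV against CS the fitted difference of 0.41 (SE 1.29, 95% interval -2.59 to 3.41, adjusted p = 0.812) was 2.72 without EV replicate 1 and -1.90 without EV replicate 2. It turned to -0.36 under cyclic loess, -0.04 under quantile normalization and -2.07 on the spike-in scale. Ahrr and Cyp1a1 share a pattern of detection, well above background on all 4 CS and EV arrays and on none of the 4 MSC and NAIVE arrays, which was seen in 138 of the 45598 probes (0.303%) and was picked out after the values were seen. Unlike Ahrr, the CS levels of Cyp1a1 lay above the lowest level well above background on every MSC and NAIVE array, of which the highest was -4.70.

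Cyp1b1 encodes a P450 of tissues outside the liver that oxidises polycyclic hydrocarbons. The probe that stands for it had levels of -3.94 and -4.20 in EV lung, -3.73 and -2.74 in MSC lung, -5.04 and -5.20 in CS lung and -4.94 and -3.16 in NAIVE lung. CS was the lowest group with no overlap, and the 2 NAIVE arrays lay far apart, 1 below and 1 above both EV arrays. Cyp1b1 was higher in MSC than in CS lung on the percentile scale, at 1.89 (SE 0.59, adjusted p = 0.0251). The difference turned to -2.13 on the spike-in scale, and it did not pass under cyclic loess (0.97, adjusted p = 0.216) or quantile normalization (0.98, adjusted p = 0.204), nor without MSC replicate 2 (1.39, adjusted p = 0.127) or either CS array. It was 1.05 in EV against CS (SE 0.59, adjusted p = 0.184, and -1.43 on the spike-in scale) and -1.07 in CS against NAIVE (SE 0.59, adjusted p = 0.165, and 1.90 on the spike-in scale). Without the second NAIVE array the CS difference was -0.18, and without the first it passed at -1.96 (adjusted p = 0.0232).

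A further Cyp1b1 probe likewise had CS lowest and MSC highest, with -4.60 and -4.47 in EV, -4.14 and -3.57 in MSC, -5.71 and -5.33 in CS and -4.87 and -4.95 in NAIVE lung. In the fit of all probes the further probe passed in EV against CS at 0.98 (SE 0.31, adjusted p = 0.0400) and in MSC against CS at 1.66 (SE 0.31, adjusted p = 0.00296), and both turned lower on the spike-in scale, to -1.50 and -2.36. The dimmest Cyp1b1 probe was well above background on both CS arrays and on MSC replicate 2 alone, with a CS against NAIVE difference of 1.46 (SE 0.71, adjusted p = 0.124) that has the opposite sign to the other 2 probes. It allows no fold between CS and NAIVE lung.

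Cyp2s1 encodes a P450 of epithelia of the airway, gut and skin, reported as AhR-inducible in mouse. Its level was 1.60 and 2.08 in EV lung, 2.51 and 2.75 in MSC lung, 0.31 and 0.38 in CS lung and 1.62 and 2.61 in NAIVE lung. The CS arrays were the lowest with no overlap, and the MSC arrays lay above EV and overlapped NAIVE. Cyp2s1 fell in CS against NAIVE on the percentile scale, at -1.77 (SE 0.38, adjusted p = 0.00886), and was -1.15 below the median of all features; it turned to 1.19 on the spike-in scale. It was higher in EV than in CS lung at 1.50 (SE 0.38, adjusted p = 0.0200) and higher in MSC than in CS lung at 2.29 (SE 0.38, adjusted p = 0.00177), and both turned lower on the spike-in scale, to -0.99 and -1.73. The EV call did not pass under cyclic loess (1.03, adjusted p = 0.0845) or quantile normalization (1.25, adjusted p = 0.0521), while the CS call passed without the second NAIVE array at -1.28 (adjusted p = 0.0400) and was lost without CS replicate 1 (-1.74, adjusted p = 0.0592).

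Cyp2e1 encodes the ethanol-inducible P450 that acts on small solvents and nitrosamines of smoke. Its level was -2.98 and -3.27 in EV lung, -3.78 and -4.59 in MSC lung, -0.35 and -1.12 in CS lung and -3.11 and -1.22 in NAIVE lung. CS was the highest group, MSC the lowest, and the second NAIVE array, which holds the liver markers, was close to the lower CS array. The probe was not well above background on MSC replicate 2, where its processed signal was 10.6, beside 17.9 on MSC replicate 1. Cyp2e1 was lower in EV than in CS lung at -2.38 (SE 0.62, adjusted p = 0.0216) and lower in MSC than in CS lung at -3.45 (SE 0.62, adjusted p = 0.00260), with the same sign under every scaling tried and -4.87 and -7.47 on the spike-in scale. The EV call was lost without CS replicate 1 (-2.00, adjusted p = 0.139), EV replicate 1 or EV replicate 2, and the MSC call was kept without each array in turn. In CS against NAIVE the difference was 1.43 (SE 0.62, adjusted p = 0.0940). Without the second NAIVE array it was 2.37 and passed (adjusted p = 0.0203), and without the first it was 0.48 (adjusted p = 0.472). Liver markers differed among themselves in CS lung: Alb was not well above background there, at -9.62 and -7.92. Serpina1 stood at -4.77 and -3.97 in EV, -2.94 and -3.22 in MSC, -1.46 and -3.18 in CS and -4.18 and 0.71 in NAIVE lung. The summed level of the 4 tested liver markers was 0.0784 and 0.103 in EV, 0.161 and 0.240 in MSC, 0.381 and 0.166 in CS and 0.108 and 17.9 in NAIVE lung. The part of liver RNA in the Cyp2e1 values was not tested.

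Cyp4b1 encodes a P450 of lung that activates aromatic amines and furans. Its brighter probe had levels of 5.24 and 5.12 in EV lung, 4.33 and 3.48 in MSC lung, 4.41 and 4.51 in CS lung and 5.07 and 4.98 in NAIVE lung. The EV and NAIVE arrays were the highest and did not overlap CS, which in turn lay above MSC. No difference passed: it was 0.72 in EV against CS (SE 0.34, adjusted p = 0.122), -0.55 in MSC against CS (SE 0.34, adjusted p = 0.188), -0.56 in CS against NAIVE (SE 0.34, adjusted p = 0.198) and 1.27 in EV against MSC (SE 0.34, adjusted p = 0.0586). The last passed under cyclic loess at 1.50 (adjusted p = 0.0369), and CS against NAIVE turned to 0.30 there, beside 2.40 on the spike-in scale, where EV against CS was -1.76. The dimmer probe behaved differently, with -0.85 and -0.56 in EV, -0.40 and -0.84 in MSC, 1.60 and 0.78 in CS and -0.62 and -0.01 in NAIVE lung. In the fit of all probes it passed as higher in CS than in NAIVE lung at 1.50 (SE 0.39, adjusted p = 0.0172), lower in EV than in CS lung at -1.89 (SE 0.39, adjusted p = 0.0100) and lower in MSC than in CS lung at -1.81 (SE 0.39, adjusted p = 0.00552). The direction of Cyp4b1 in CS lung thus depends on the probe, and among the 2715 genes with several tested probes 45.7% had probes of opposite sign in CS against NAIVE.

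**Figure D2:**
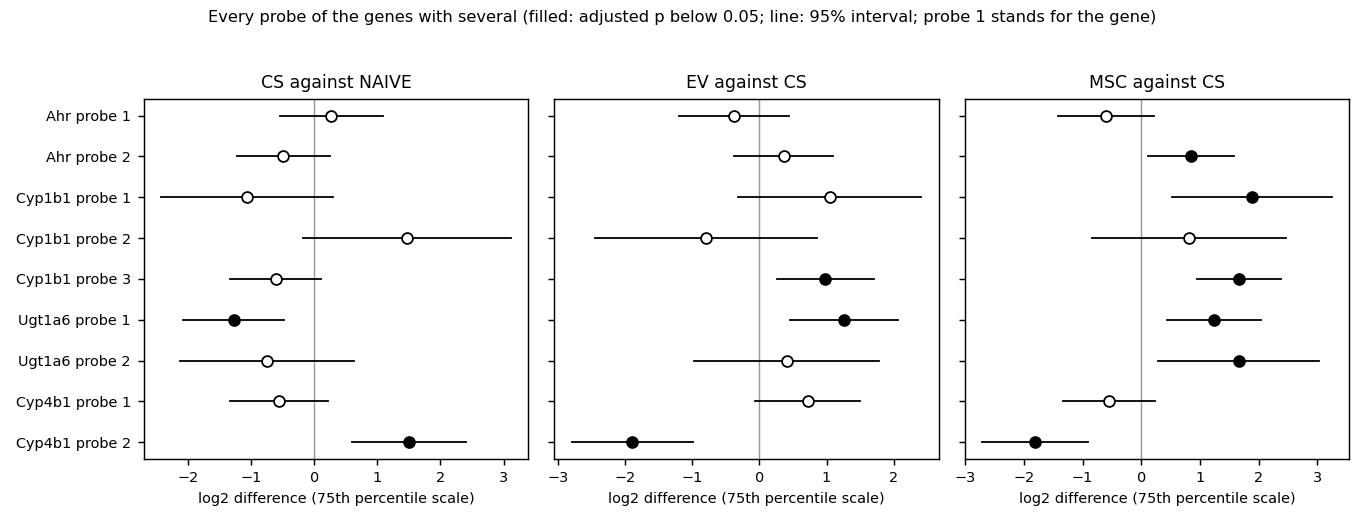
Log2 difference on the 75th percentile scale, with its 95% interval, of every probe of the 4 members with several probes, for CS against NAIVE, EV against CS and MSC against CS, with filled points at an adjusted p below 0.05. The 2 probes of Cyp4b1 lie on opposite sides of 0 in CS against NAIVE (-0.56 and 1.50) and in EV against CS (0.72 and -1.89), and those of Ahr in all 3 panels, whereas the 2 probes of Ugt1a6 share a sign in each.

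Aldh3a1 encodes an aldehyde dehydrogenase that clears aromatic and lipid aldehydes. Its probe is spotted 10 times, and the SD between spots of an array was 0.128 or less for it and for the Ugt1a6 probe spotted as often. Its level was -1.70 and -2.16 in EV lung, -1.74 and -0.93 in MSC lung, -2.00 and -2.17 in CS lung and -1.76 and -2.16 in NAIVE lung. EV, CS and NAIVE overlapped, and only MSC lay above CS. The difference was -0.12 in CS against NAIVE (SE 0.36, 95% interval -0.97 to 0.73, adjusted p = 0.798), 0.16 in EV against CS (SE 0.36, adjusted p = 0.751) and 0.75 in MSC against CS (SE 0.36, adjusted p = 0.113). They turned to 2.84, -2.33 and -3.27 on the spike-in scale, and the first also turned under cyclic loess (0.22) and quantile normalization (0.08), as did the EV value (-0.16 under cyclic loess).

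Nqo1 encodes the quinone reductase that is a target of both AhR and the oxidative stress factor Nrf2. Its level was -2.78 and -2.46 in EV lung, -2.27 and -2.48 in MSC lung, -1.23 and -2.04 in CS lung and -2.58 and -1.88 in NAIVE lung. Both CS arrays lay above EV and MSC, and 1 of them lay within the NAIVE range. The difference was 0.60 in CS against NAIVE (SE 0.39, adjusted p = 0.230), -0.99 in EV against CS (SE 0.39, adjusted p = 0.0753) and -0.74 in MSC against CS (SE 0.39, adjusted p = 0.132), with no sign turned by another scaling. The EV difference passed under cyclic loess (-1.31, adjusted p = 0.0369), and the MSC difference passed there at -1.21 (adjusted p = 0.0294) and under quantile normalization at -1.18 (adjusted p = 0.0271).

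Ugt1a6 encodes a transferase that joins phenols to glucuronic acid, and its probes may read other genes of the UGT1A cluster, which share their last exons. The brighter probe had levels of 0.42 and 1.01 in EV lung, 0.52 and 0.88 in MSC lung, -0.60 and -0.50 in CS lung and 0.43 and 1.02 in NAIVE lung. CS stood below all other arrays, and the other 3 groups overlapped each other. Ugt1a6 fell in CS against NAIVE on the percentile scale, at -1.28 (SE 0.34, adjusted p = 0.0196), and was higher than CS in EV lung at 1.26 (SE 0.34, adjusted p = 0.0246) and in MSC lung at 1.25 (SE 0.34, adjusted p = 0.0156), and these turned to 1.69, -1.22 and -2.77 on the spike-in scale. Under cyclic loess none of these 3 passed, at -0.84, 0.88 and 0.81 (adjusted p from 0.0829 to 0.0922). Without the second NAIVE array the CS difference was -0.98 (adjusted p = 0.0967). The dimmer probe, at -4.27 and -6.26 in EV, -4.25 and -3.78 in MSC, -5.46 and -5.89 in CS and -4.98 and -4.88 in NAIVE lung, had the same signs and passed only in MSC against CS among these 3 comparisons, at 1.66 (SE 0.59, adjusted p = 0.0424, and -2.36 on the spike-in scale). It was not well above background on EV replicate 2 (processed signal 6.30) or NAIVE replicate 2 (12.3), so its signs in comparisons with these groups rest partly on dim values.

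**Figure D3:**
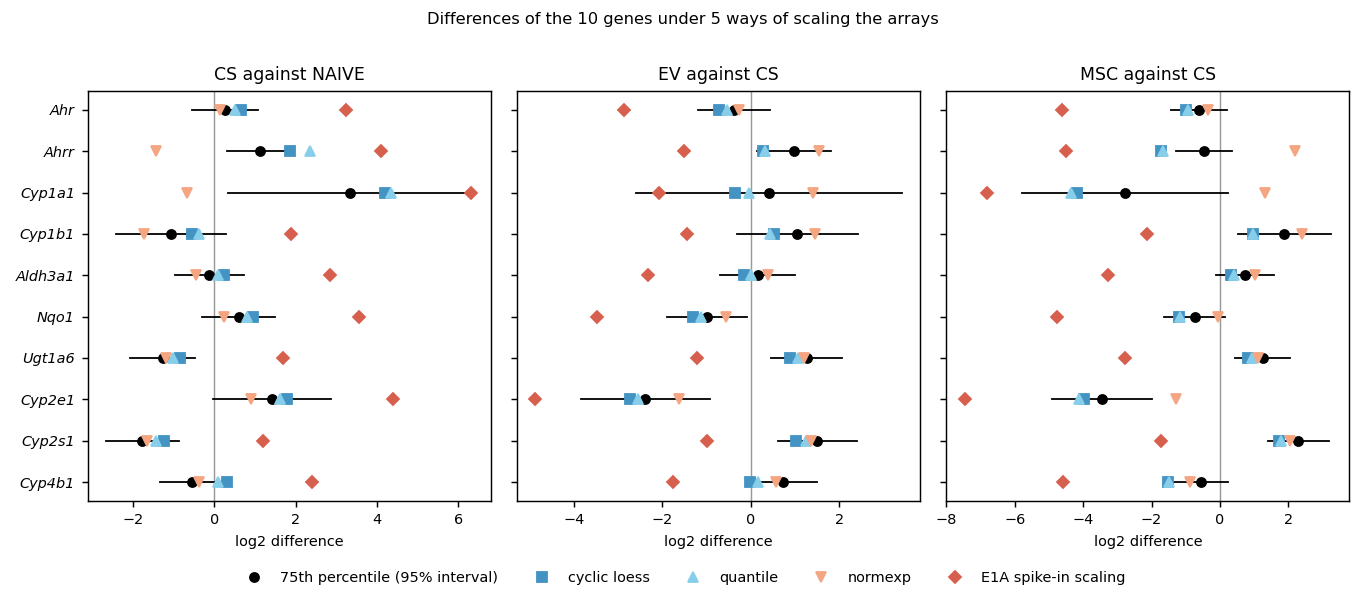
Log2 difference of each member in CS against NAIVE, EV against CS and MSC against CS under 5 ways of scaling the arrays, with the 95% interval of the 75th percentile scale. Cyp2e1, Nqo1 and Ahr (by its brighter probe) keep their signs under all 5. Cyp2s1 and Ugt1a6 stand at -1.77 and -1.28 on the percentile scale and at 1.19 and 1.69 on the spike-in scale in CS against NAIVE.

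Over the 8 arrays, Cyp2s1 and Ugt1a6 had the most alike levels of any pair of members (Pearson r = 0.94), followed by Cyp1b1 and Cyp2s1 (0.89), Nqo1 and Cyp2e1 (0.80) and Cyp1b1 and Ugt1a6 (0.78), while Ahr and Cyp1b1 ran most opposite (-0.95). These coefficients describe 8 arrays that share a scale and fall into 4 groups. Each gene enters by the probe that stands for it alone. Ahr, Cyp1b1 and Cyp4b1 each have another probe of opposite sign in CS against NAIVE, for which no coefficient was computed. Among 12700 other genes with a symbol, those most like Ahr were Dnajc24 (r = 0.97), Npw (0.97) and Slc2a8 (0.96), and Abhd14b (0.97) and Ube2d2b (0.96) were among those most like Nqo1. Zbtb7b (0.98), Mdh1b (0.98) and Ggt1 (0.97) were most like Cyp1b1. For Cyp1a1 they were Rad18, Cacna1h and Pus1 (0.92 each), and for Cyp4b1 they were M6pr (0.98), Atl2 (0.98) and Mtmr3 (0.97).

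The partners of the receptor were read beside it as a list of 13 genes, of which 10 were tested. Of these, 1 passed as higher and 4 as lower in CS against NAIVE, with a median of -0.98 beside -0.62 for all features, of which 12.1% were higher and 35.4% lower. With the second NAIVE array or CS replicate 1 left out, fewer partners passed as lower, and fewer of all features passed as well. Arnt2, a relative of Arnt that can also pair with the receptor, had levels of -0.33 and -0.12 in EV, 1.67 and 1.38 in MSC, -2.82 and -2.27 in CS and 0.05 and 0.88 in NAIVE lung. CS was lowest and MSC highest without overlap, and the difference was -3.01 in CS against NAIVE (SE 0.37, adjusted p = 0.00219), 2.32 in EV against CS (SE 0.37, adjusted p = 0.00506) and 4.07 in MSC against CS (SE 0.37, adjusted p = 0.000243), beside -0.05, -0.16 and 0.05 on the spike-in scale, where none passed. Ddb1, part of the ubiquitin ligase that turns over the receptor, was higher in CS than in NAIVE lung at 1.88 (adjusted p = 0.00325) and lower than CS in EV lung at -1.68 (adjusted p = 0.00626) and MSC lung at -1.93 (adjusted p = 0.00123), with the same signs on every scale tried. The chaperone gene Hsp90ab1 and the coactivator gene Ncoa2 were lower in CS than in NAIVE lung at -1.79 (adjusted p = 0.0145) and -1.96 (adjusted p = 0.00454), and turned to 1.18 and 1.00 on the spike-in scale. Arnt, named for its role after its value was seen, had 0.12 in CS against NAIVE (adjusted p = 0.732). In EV against CS and in MSC against CS 3 of the 10 partners passed as higher (Arnt2, Hsp90ab1 and Ncoa2) and 1 as lower (Ddb1). Of all features 29.8% passed as higher and 9.94% as lower in EV lung, and 43.3% and 16.4% in MSC lung. Hsp90ab1, at 2.12 in EV and 2.78 in MSC lung on the percentile scale, turned to -0.36 and -1.24 on the spike-in scale.

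Of 15 other genes named as AhR targets, 8 were tested. In CS against NAIVE 1 passed as higher and 1 as lower, beside 12.1% and 35.4% of all features. The growth factor gene Areg passed as higher in CS than in NAIVE lung (2.13, SE 0.70, adjusted p = 0.0399) and Igfbp1, which encodes a binding protein of insulin-like growth factors, as lower (-1.72, SE 0.37, adjusted p = 0.00848, and 1.25 on the spike-in scale). The Areg call was lost without the second NAIVE array (2.40, adjusted p = 0.0867) and without the first (1.86, adjusted p = 0.149), CS replicate 1 or either EV array. Areg had levels of -1.84 and -1.41 in EV, -2.93 and -5.07 in MSC, 0.69 and -0.52 in CS and -2.32 and -1.77 in NAIVE lung. It was lower in MSC than in CS lung at -4.09 (SE 0.70, adjusted p = 0.00206), with MSC replicate 2 not well above background. In EV against CS Igfbp1 alone passed, at 1.26 (adjusted p = 0.0304, and -1.23 on the spike-in scale), and in MSC against CS Igfbp1 passed as higher (2.62, adjusted p = 0.000856, and -1.40 on the spike-in scale) and Areg and the stress factor gene Nfe2l2 as lower (Nfe2l2 -0.99, adjusted p = 0.0133). Among all features 29.8% passed as higher and 9.94% as lower in EV against CS, and 43.3% and 16.4% in MSC against CS.

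Other enzymes of the first phase of foreign compound metabolism, which oxidise or reduce their substrates, were 31 listed and 26 tested. In CS against NAIVE 8 passed as higher and 2 as lower, beside 12.1% and 35.4% of all features, and the median of the list lay 1.05 above that of all features. The aldehyde reductase gene Akr1a1 was higher at 1.86 (SE 0.33, adjusted p = 0.00452), the flavin monooxygenase gene Fmo1 at 2.47 (SE 0.44, adjusted p = 0.00467) and the cytochrome b5 reductase gene Cyb5r3 at 1.40 (SE 0.29, adjusted p = 0.00803), all with the same sign on every scale tried. Aldh1a1, a retinal dehydrogenase that is also among the club cell markers, was lower at -1.42 (SE 0.28, adjusted p = 0.00667), and turned to 1.54 on the spike-in scale. Against CS, 2 of the 26 were higher and 6 lower in EV lung, and 4 were higher and 12 lower in MSC lung, beside 29.8% and 9.94% of all features for EV and 43.3% and 16.4% for MSC lung. Fmo1 stood at -2.64 and -2.91 in these, and Akr1a1 at -1.87 and -2.53. Fmo5, well above background on all EV and CS arrays only, was at least 6.24-fold higher in CS than in NAIVE lung (adjusted p = 0.00843), with bounds of 3.63-fold without NAIVE replicate 1 and 10.7-fold without NAIVE replicate 2. Its levels were -6.14 and -5.18 in EV, -5.43 and -5.20 in MSC, -2.45 and -3.24 in CS and -6.26 and -4.75 in NAIVE lung. EV lung thus overlapped NAIVE and MSC and was lower than CS, at -2.82 (SE 0.57, adjusted p = 0.00919). Fmo2, the main flavin monooxygenase of lung, was higher than CS at 1.79 in EV and 3.32 in MSC lung and turned to -0.69 and -0.70 on the spike-in scale.

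Conjugating enzymes of the second phase were 24 listed and 19 tested. Of these, 7 passed as higher and 1 as lower in CS against NAIVE, beside 12.1% and 35.4% of all features, with a median 1.62 above that of all features. The glutathione transferase genes Gstt1 and Mgst1 were higher at 1.31 (SE 0.31, adjusted p = 0.0129) and 2.02 (SE 0.50, adjusted p = 0.0149). Gstm5 had only a bound in NAIVE lung and was at least 2.61-fold higher in CS lung (adjusted p = 0.00590), with a fitted difference of -0.51 under normexp and bounds of 1.49-fold without NAIVE replicate 1, 4.59-fold without NAIVE replicate 2, 1.62-fold without CS replicate 1 and 4.22-fold without CS replicate 2. Against CS, 1 of the 19 was higher and 9 lower in EV lung, among them Mgst1 (-2.76, SE 0.50, adjusted p = 0.00701) and Gstp1 (-1.43, SE 0.28, adjusted p = 0.00859), and 2 were higher and 9 lower in MSC lung, among them Gstt1 (-2.16, SE 0.31, adjusted p = 0.000999) and Mgst1 (-2.68, SE 0.50, adjusted p = 0.00304). Beside these counts, 29.8% of all features passed as higher and 9.94% as lower in EV lung, and 43.3% and 16.4% in MSC lung. Fewer first-phase and second-phase genes passed in CS against NAIVE without either NAIVE array or CS replicate 1. The same held in EV against CS without CS replicate 1 or either EV array. Fewer first-phase genes passed in CS against NAIVE without CS replicate 2, and more without either MSC array. In MSC against CS fewer second-phase genes passed as lower without CS replicate 1. The number of all features that passed moved the same way in each of these fits. Mouse and rat glutathione transferases of a class are close copies, so a probe may read more than its own gene.

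Of 8 efflux pump genes 7 were tested, and 0 passed as higher and 2 as lower in CS against NAIVE, where 35.4% of all features were lower. Abcc2, an exporter of glucuronides and other conjugates, stood at -1.59 (SE 0.41, adjusted p = 0.0167) and Abcc5, an exporter of nucleotides, at -0.93 (SE 0.28, adjusted p = 0.0300), and both turned higher on the spike-in scale, to 1.38 and 2.04. Neither passed without the second NAIVE array (Abcc2 -1.20, adjusted p = 0.0878, Abcc5 -0.95, adjusted p = 0.0808), without CS replicate 1, under quantile normalization or under cyclic loess. Both passed as higher than CS in EV lung, at 1.49 and 0.97, and in MSC lung, at 2.02 and 0.98, and turned lower there on the spike-in scale. Of all features 29.8% passed as higher in EV lung and 43.3% in MSC lung on the percentile scale. In MSC lung the exporter gene of glutathione conjugates Abcc1 and the multidrug pump gene Abcb1b were lower than CS at -1.43 and -1.27 (adjusted p = 0.0293 each). There 16.4% of all features passed as lower. In EV or MSC against NAIVE no gene of the 5 lists passed on the percentile scale, beside 0% and 0.00397% of all features. On the spike-in scale no gene of the lists passed in EV against NAIVE (0.00793% of all features). In MSC against NAIVE 5 first-phase genes, 2 second-phase genes, 1 efflux pump gene and 1 other AhR target passed there as lower (6.3% of all features).

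**Figure D4:**
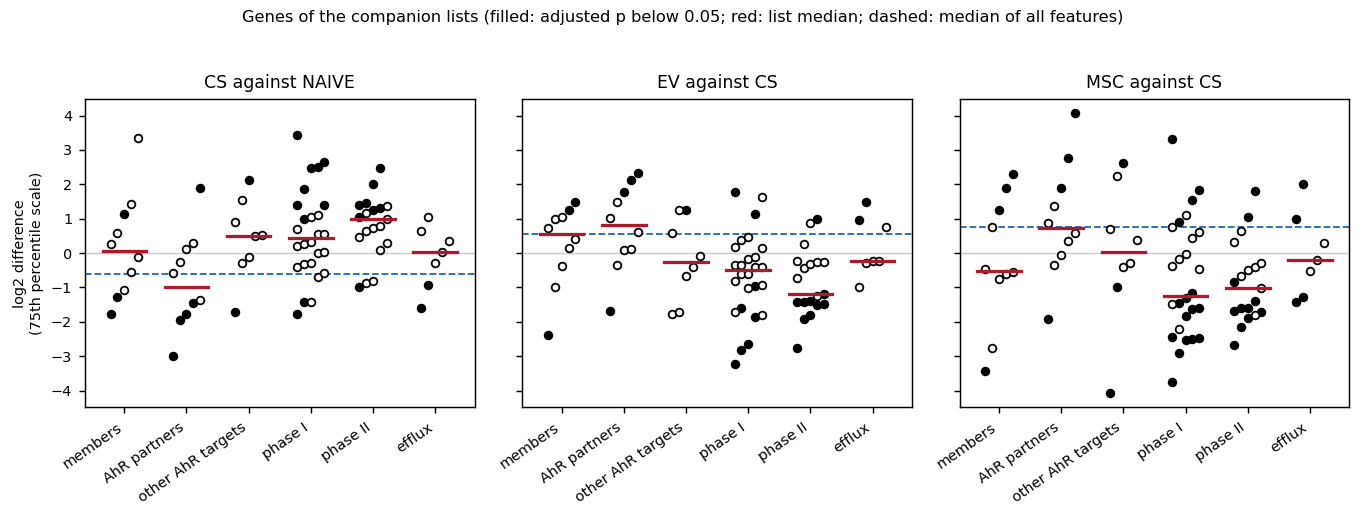
Log2 difference on the 75th percentile scale of the 10 members and of the tested genes of the 5 companion lists, for CS against NAIVE, EV against CS and MSC against CS, with filled points at an adjusted p below 0.05, red lines at list medians and a dashed line at the median of all features. In CS against NAIVE the medians of the first-phase and second-phase lists lie 1.05 and 1.62 above the dashed line. On the spike-in scale all 26 and all 19 of their genes passed as higher in that comparison, as did 82.6% of all features.

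Markers of cell types that carry these enzymes moved between the groups on the same scale. The 8 club cell markers summed to 149 and 163 times the array's 75th percentile in EV lung, 92.0 and 281 in MSC lung, 94.6 and 91.6 in CS lung and 137 and 293 in NAIVE lung, and all 8 were well above background on every array. In CS against NAIVE 0 of these 8 passed as higher and 1 as lower, beside 12.1% and 35.4% of all features. In EV and in MSC lung 2 passed as higher than CS, beside 29.8% and 43.3% of all features. On the spike-in scale 4 in EV and 6 in MSC lung passed as lower than CS, beside 73.2% and 87.9%. The 6 tested of 7 alveolar type 2 markers summed to 943 and 1174 in EV lung, 1496 and 773 in MSC lung, 403 and 418 in CS lung and 1162 and 1473 in NAIVE lung. Ciliated cell markers, 5 tested of 7, summed to 74.3 to 93.4 outside CS lung and to 37.4 and 41.5 in it, and endothelial markers to 101 to 209 outside CS lung and to 56.0 and 74.7 in it. Macrophage markers summed to 2.14 and 2.37 in EV, 2.05 and 2.27 in MSC, 3.82 and 2.80 in CS and 2.18 and 1.68 in NAIVE lung. Their median level was instead highest in MSC lung, at -2.12 and -1.68. It was -2.67 and -3.29 in EV, -3.08 and -3.63 in CS and -4.48 and -3.95 in NAIVE lung. Of these 7 markers 2 passed as higher and 0 as lower in CS against NAIVE (12.1% and 35.4% of all features). Against CS, 1 passed as higher and 1 as lower in EV lung (29.8% and 9.94%), and 1 and 2 in MSC lung (43.3% and 16.4%). The sums of alveolar type 1 markers (102 to 324), fibroblast markers (20.6 to 41.9) and neutrophil markers (5.26 to 14.9) overlapped between CS and at least 1 other group. Calls were mixed for the 7 endothelial markers, with 2 higher and 2 lower in CS against NAIVE. Of type 2 markers 3 of 6, and of ciliated markers 3 of 5, passed as lower and 0 as higher. Of all features 35.4% passed as lower and 12.1% as higher. On the spike-in scale 6 of 8 club, 5 of 6 type 2 and 3 of 5 ciliated markers passed as higher. So did 5 of 7 endothelial markers and 82.6% of all features, and no marker of these types passed as lower. The median level over type 2 markers was 5.80 and 5.81 in EV, 6.19 and 4.75 in MSC, 5.77 and 5.70 in CS and 6.21 and 6.16 in NAIVE lung. That over endothelial markers was 4.13 and 3.89 in EV, 4.07 and 2.61 in MSC, 2.89 and 3.57 in CS and 4.22 and 3.47 in NAIVE lung. Both medians were lowest on MSC replicate 2. The part of cell makeup in the members' values was not tested.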

How the data were processed

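RNA from 30 mg of rat lung, 200 ng per labelling, was hybridised to 1-colour Agilent arrays of design 074036, and the deposited intensity values are background-corrected spot signals made by Feature Extraction 10.7.3.1, per the file headers. The other deposited columns used are flags for spots well above background, saturated or outlying, per the file headers. Control spots and outlier spots were left out, and no spot was saturated. Each level is log2 of the processed intensity minus the log2 of the array's 75th percentile over spots, and spots of a probe were averaged. The filter kept a probe that some group showed well above background on each of its 2 arrays. Of 45598 probes 21215 were named through RefSeq accessions and 29780 were kept. The probe with the highest mean level stood for its gene, and unnamed probes were features of their own. Limma 3.58.1 in R 4.3.3 was fitted to all 4 groups over 25212 features (lmFit, eBayes), with Benjamini-Hochberg adjustment over all features and a threshold of 0.05, and it was tested on simulated data. Every adjusted or unadjusted p in the text comes from it. The spike-in scale subtracts instead the average log2 intensity of E1A spike-in control probes, using the 7 of 10 whose average exceeds 6. Where both arrays of a group were not well above background, "at least N-fold" sets the brighter group's mean against the mean, per array, of the higher of the dim value and the lowest level well above background. All 10 genes were named, as were up to 4 called genes of each companion list by smallest p in CS against NAIVE, EV against CS and MSC against CS, and the 3 genes most correlated with each of Ahr, Cyp1a1, Cyp1b1, Nqo1 and Cyp4b1. Some genes that this rule names are not reported here. The genes and lists were chosen with earlier results of these data known. Alternatives were normexp with an offset of 50, quantile and cyclic loess normalization, spike-in scaling, other filters and probe rules, a fit of 2 groups, a replicate block and leaving out each array; the percentile over probes was added after seeing the data. Figures were drawn with matplotlib 3.10.9.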

Additional observations from a re-analysis of the deposited data

How the results depend on the processing

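Among values of the 10 genes under other settings, 863 kept their direction and side of the threshold, 86 turned sign, 72 passed only there and 41 no longer passed, and the cause was not tested in any of these. On the spike-in scale, the values that turned sign were Cyp1b1 1.90, Aldh3a1 2.84, Ugt1a6 1.69, Cyp2s1 1.19, Cyp4b1 2.40 in CS against NAIVE, Ahrr -1.50, Cyp1a1 -2.07, Cyp1b1 -1.43, Aldh3a1 -2.33, Ugt1a6 -1.22, Cyp2s1 -0.99, Cyp4b1 -1.76 in EV against CS, Cyp1b1 -2.13, Aldh3a1 -3.27, Ugt1a6 -2.77, Cyp2s1 -1.73 in MSC against CS, Cyp1b1 0.70, Aldh3a1 0.95, Nqo1 1.29, Cyp2s1 0.75 in EV against MSC, Ahr 0.37, Cyp1b1 0.46, Nqo1 0.086, Ugt1a6 0.46, Cyp2s1 0.20 in EV against NAIVE, Ahrr -0.39, Cyp1a1 -0.49, Cyp1b1 -0.24, Aldh3a1 -0.43, Cyp2s1 -0.54 in MSC against NAIVE. Under normexp, the values that turned sign were Ahrr -1.45, Cyp1a1 -0.67 in CS against NAIVE, Ahrr 2.19, Cyp1a1 1.31 in MSC against CS, Ahrr -0.64, Cyp2e1 -0.35 in EV against MSC, Aldh3a1 -0.068, Ugt1a6 0.0093 in EV against NAIVE, Nqo1 0.16 in MSC against NAIVE. Under quantile normalization, the values that turned sign were Aldh3a1 0.081, Cyp4b1 0.082 in CS against NAIVE, Cyp1a1 -0.035, Aldh3a1 -0.0013 in EV against CS, Nqo1 0.051 in EV against MSC, Cyp1b1 0.047, Ugt1a6 0.057 in EV against NAIVE. Under cyclic loess, the values that turned sign were Aldh3a1 0.22, Cyp4b1 0.30 in CS against NAIVE, Cyp1a1 -0.36, Aldh3a1 -0.16, Cyp4b1 -0.022 in EV against CS, Ugt1a6 0.039 in EV against NAIVE. With probes of a gene averaged, the values that turned sign were Ahr -0.11, Cyp4b1 0.47 in CS against NAIVE, Cyp4b1 -0.59 in EV against CS, Ahr 0.12 in MSC against CS, Ahr -0.13, Ugt1a6 -0.62 in EV against MSC, Cyp1b1 0.34, Cyp4b1 -0.11 in EV against NAIVE, Ahr 0.013, Ugt1a6 0.44 in MSC against NAIVE. With the percentile taken over probes, the values that turned sign were Aldh3a1 0.091 in CS against NAIVE, Cyp1b1 0.049, Ugt1a6 0.051 in EV against NAIVE. With 1 array left out, genes that turned sign ranged over Aldh3a1 -0.33 to 0.080, Ahr -0.051 to 0.59 in CS against NAIVE; Aldh3a1 -0.077 to 0.39, Cyp1a1 -1.90 to 2.72 in EV against CS; Ugt1a6 -0.28 to 0.31, Ahr -0.12 to 0.57 in EV against MSC; Ahr -0.43 to 0.21, Cyp1b1 -0.91 to 0.87, Aldh3a1 -0.20 to 0.26, Ugt1a6 -0.31 to 0.28, Cyp2s1 -0.77 to 0.22 in EV against NAIVE; Cyp1a1 -0.24 to 1.38, Cyp1b1 -0.069 to 1.71, Nqo1 -0.49 to 0.20, Ugt1a6 -0.32 to 0.27, Ahr -0.68 to 0.0062 in MSC against NAIVE. The number of the 10 genes that passed was 3 in CS against NAIVE, and 5 under normexp and 10 on the spike-in scale. It was 3 in EV against CS, and 6 under normexp, 1 under quantile normalization, 9 on the spike-in scale, 0 with no filter on dim probes, 5 with every probe its own feature and 6 in a fit of the 2 groups compared. It was 4 in MSC against CS, and 8 under normexp, 7 under quantile normalization, 7 under cyclic loess and 10 on the spike-in scale. In EV against MSC it was 0, and 2 under normexp, 1 under quantile normalization, 2 under cyclic loess, 6 on the spike-in scale, 1 with probes detected on all 8 arrays and 1 with the percentile over probes. In MSC against NAIVE it was 0, and 2 on the spike-in scale. With 1 array left out these counts changed in CS against NAIVE, EV against CS and MSC against CS, where the number of all features that passed changed as well. They did not change in the other 3. Over all features, 11973 passed in CS against NAIVE (25.4% of them higher), with 18602 under normexp (10.3% higher), 20952 on the spike-in scale (99.4%), 9229 under quantile normalization (46.6%) and 10286 under cyclic loess (49.3%). In EV against CS 10029 passed (75% higher), with 17306 under normexp (89.1%), 18632 on the spike-in scale (1.01%), 6910 under quantile normalization (54.9%) and 7966 under cyclic loess (49.6%). In MSC against CS 15052 passed (72.5% higher), with 23446 with no filter, and the higher share was 89% under normexp, 0.89% on the spike-in scale, 50.1% under quantile normalization, 49.2% under cyclic loess and 61.2% with the percentile over probes. In EV against MSC 1795 passed (25.1% higher), with 12689 under normexp (5.92%), 10260 on the spike-in scale (99.9%), 2030 under quantile normalization (55.5%), 1360 under cyclic loess (55.4%), 0 with no filter or in a fit of the 2 groups, 3076 with probes detected on all 8 arrays, 1140 with the percentile over probes (53.6%) and 1012 with the replicate block. MSC against NAIVE had 1, and 303 under normexp, 140 under quantile normalization, 1609 on the spike-in scale and 218 with probes detected on all 8 arrays. The replicate numbers did not pair the samples (correlations of deviations from -0.15 to 0.14), and with the replicate block Cyp1a1 passed in CS against NAIVE (adjusted p = 0.0315 by limma) and in MSC against CS (adjusted p = 0.0463).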
